A study of Mus musculus with 8 samples.

Results

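The genes described here are the 5 dopamine receptors of the mouse (Drd1, Drd2, Drd3, Drd4 and Drd5), the adenosine receptors Adora2a and Adora1, the orphan receptor Gpr6, and Th, which encodes the enzyme that makes the dopamine precursor. They were taken by symbol from the gene table, and all 9 were found among its 55536 genes. The 9 were selected on what an earlier reading of this same contrast had shown, so their genotype differences are given as a description. No p-value is printed for them, and whether a member passed a limit, with all libraries or with 1 left out, describes the values that chose it and is no independent support. The libraries are RNA-seq of frontal cortex from 8-week-old mice, 4 from wild type (WT) littermates and 4 from HAR123-KO mice. In the KO line the mouse form of HAR123, a human accelerated region in an intron of Smg6, was removed by Cas9 with a pair of guide RNAs injected into C57BL/6J zygotes, and the strains were backcrossed to C57BL/6J. The deletion is carried in every cell of the animal and is not limited to a cell type. The comparison asked which genes respond in frontal cortex when HAR123 is missing, because the mutant mice were studied for cognitive flexibility. The deleted element is not a gene of the table, so the counts give no check of the genotype labels.

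Dopamine receptors fall into a D1-like class (Drd1 and Drd5), which couples to stimulatory G proteins and raises cAMP, and a D2-like class (Drd2, Drd3 and Drd4), which couples to inhibitory G proteins and lowers it. In the striatum, Drd1 marks projection neurons of the direct pathway, and Drd2, Adora2a and Gpr6 mark those of the indirect pathway, where Adora2a acts against Drd2 through stimulatory G proteins and can form complexes with it. In the cortex, dopamine arrives through axons of midbrain neurons, and its receptors are made by subsets of pyramidal cells and interneurons at far lower levels than in the striatum.

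Total counts ran from 13528251 to 17051001 per library, of which nuclear protein-coding genes other than Lars2 held 2786320 to 3732172. Values below are counts divided by the size factors of DESeq2 (normalised counts), a scale on which libraries can be compared gene by gene. The labels do not say that each library came from a different animal, so the p-values measure the spread between these libraries, which may be technical. That spread was small. A chi-square comparison of counts over protein-coding genes, divided by its degrees of freedom so that counting error alone gives 1, came to 1.21 to 1.3 for pairs of libraries of 1 genotype and 1.58 to 1.72 across genotypes. Gene markers of cortical layers were present in all libraries, and so were 16 markers shared by striatal projection neurons, whose counts summed to between 9862 and 10195 in WT.

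Per kilobase of annotated exon, the scale on which different genes can be compared, Adora1 was the most abundant of the 9 in WT, with 113 ± 6.3 normalised counts per kb (SD, n = 4). Adora2a (53.0 ± 3.37), Drd1 (49.2 ± 4.72) and Drd2 (46.2 ± 7.15) followed, all in the same unit, and the ranges over libraries overlapped between Adora2a and Drd1 and between Drd1 and Drd2. Gpr6 stood lower at 18.8 ± 4.64, apart from Drd2 above it and from Th below it. Th (2.52 ± 0.622) and Drd5 (1.84 ± 0.796) overlapped each other, and Drd4 (0.34 ± 0.397) and Drd3 (0.247 ± 0.495) were at or near 0 and could not be ranked against each other. In HAR123-KO the level of Adora1 was 111 ± 4.35 normalised counts per kb, and the same 3 receptors came next as Adora2a (75.4 ± 10.1), Drd2 (72.7 ± 5.33) and Drd1 (64.0 ± 8.15). Drd1 and Drd2 thus changed places in the order of means, but their ranges over libraries overlapped in both genotypes, so the exchange is not resolved. Gpr6 stood at 29.5 ± 3.67 per kb, Th at 3.32 ± 0.677 and Drd5 at 2.15 ± 1.14.

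**Figure D1:**
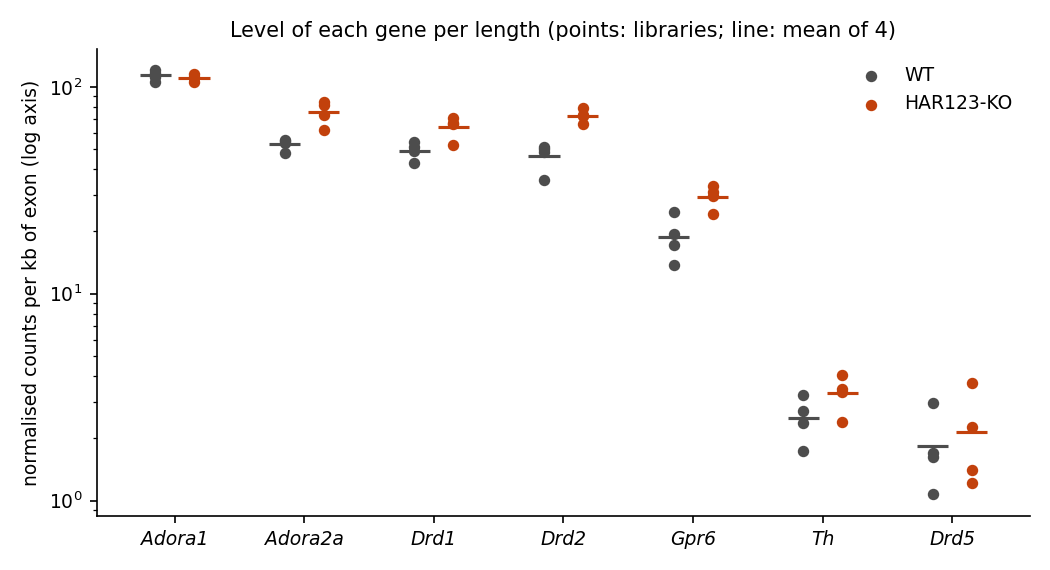
Normalised counts per kilobase of exon on a log axis for 7 of the genes, with 1 point per library, WT in grey and HAR123-KO in orange, and a line at the mean of 4. Adora1 lies above the rest near 113 in WT, Adora2a, Drd1 and Drd2 overlap one another within each genotype, and Th and Drd5 lie near 2; Drd3 and Drd4 have libraries at 0 and are not drawn.

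Among the 5 dopamine receptors, only Drd1 and Drd2 had enough reads for the test, and both were higher on average in HAR123-KO. A gene was past the limits when its DESeq2 adjusted p over all genes was under 0.05 and its log2 fold change was over 0.5 in size. Of the 9 genes, 5 kept an adjusted p after the filter on low counts (Drd1, Drd2, Adora2a, Adora1 and Gpr6), and 2 of these, Drd2 and Adora2a, were past both limits, each higher in HAR123-KO. Over all 12758 genes tested, 0.227% were past the limits and higher and 0.0705% past them and lower. By the adjusted p alone, with any fold, Drd1 joined them, where 0.972% of all genes were higher and 0.713% lower. The libraries of the genotypes did not overlap for Drd2 and Adora2a, and all 4 HAR123-KO libraries lay above all 4 WT libraries in 4.02% of genes tested. Because the genes were chosen on this contrast, nothing is read from these counts against those shares.

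Drd1 (ENSMUSG00000021478, chr13:54051183-54055705, minus strand, GRCm38), the main D1-like receptor, had 155, 185, 196 and 178 normalised counts in WT replicates 1 to 4. In HAR123-KO replicates 1 to 4 it had 257, 243, 239 and 189. Of the KO libraries 3 stood above every WT library, and HAR123-KO replicate 4 lay inside the WT range. The means were 178 ± 17.1 and 232 ± 29.6 (SD, n = 4). On the log2 scale the KO mean was higher by 0.38 ± 0.10 (SE, 95% interval 0.18 to 0.57), under the fold limit. In the 8 fits that each left out 1 library its log2 fold change stayed between 0.32 and 0.46, and its call by the adjusted p alone was kept in 3 of them and lost in the others.

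Drd5 (ENSMUSG00000039358, chr5:38319367-38322518, plus strand), the other D1-like receptor, was read 3, 5, 11 and 5 times in WT and 7, 4, 5 and 11 times in HAR123-KO as raw counts. The ranges overlapped almost fully. The log2 fold change was 0.17 ± 0.55 (SE), and its 95% interval, from -0.91 to 1.25, was too wide to place Drd5 with either of its relatives. An antisense gene that overlaps it, Gm26560, had 0 reads in WT and 5 in HAR123-KO summed over libraries.

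Drd2 (ENSMUSG00000032259, chr9:49340627-49408177, plus strand), the most abundant D2-like receptor in these libraries, had 127, 90.6, 130 and 123 normalised counts in WT replicates 1 to 4 and 169, 184, 186 and 202 in the HAR123-KO replicates. WT replicate 2 stood below the other WT libraries, and the lowest KO library was above the highest WT library. The means were 118 ± 18.2 and 185 ± 13.6 (SD, n = 4). Their ratio was 1.57, or 0.65 ± 0.11 (SE) on the log2 scale with a 95% interval from 0.43 to 0.87. The spread in HAR123-KO, 7.33% of the mean, was about what counting error alone gives (7.26%), and that in WT was wider, 15.5% against 9.24%. Without WT replicate 2 the log2 fold change was 0.55, and Drd2 was past the limits in all 8 fits that left out 1 library.

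The other D2-like receptors were at the limit of detection. Drd3 (ENSMUSG00000022705, chr16:43754026-43822932, plus strand), a receptor of the ventral striatum, was read 0, 0, 2 and 0 times in WT and 0, 1, 2 and 1 times in HAR123-KO. Drd4 (ENSMUSG00000025496, chr7:141292006-141296464, plus strand), which is known from prefrontal cortex, was read 0, 2, 3 and 0 times in WT and 0, 1, 0 and 0 times in HAR123-KO. A library with 0 reads still allows up to 3, so no difference in Drd3 or Drd4 was detectable at this depth and no fold is given. These limits cover counting error only, since copies made by PCR were not told apart from separate molecules, while the intervals of the fold changes come from the fit and also hold its spread between libraries.

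The start of Drd2 is shown because this receptor had the clearest separation of genotypes among the dopamine receptors. The RefSeq window for GRCm38.p6 covers 250 bases before the start of transcription and 50 after it, at chr9:49340153-49340452 on the plus strand. Capitals mark GC boxes (GGGCGG on either strand).
Drd2: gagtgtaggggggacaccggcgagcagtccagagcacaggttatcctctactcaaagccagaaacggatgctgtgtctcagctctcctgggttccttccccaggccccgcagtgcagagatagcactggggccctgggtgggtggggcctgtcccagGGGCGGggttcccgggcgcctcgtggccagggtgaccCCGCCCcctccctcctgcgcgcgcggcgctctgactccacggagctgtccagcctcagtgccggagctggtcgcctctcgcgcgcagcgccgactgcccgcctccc
The window holds 2 GC boxes and no TATA box (TATAAA), and 70.3% of its bases are G or C, against a median of 52.7% over 32851 mouse promoters. GC boxes occur in 35.7% of those promoters and TATA boxes in 13.6%.

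**Figure D2:**
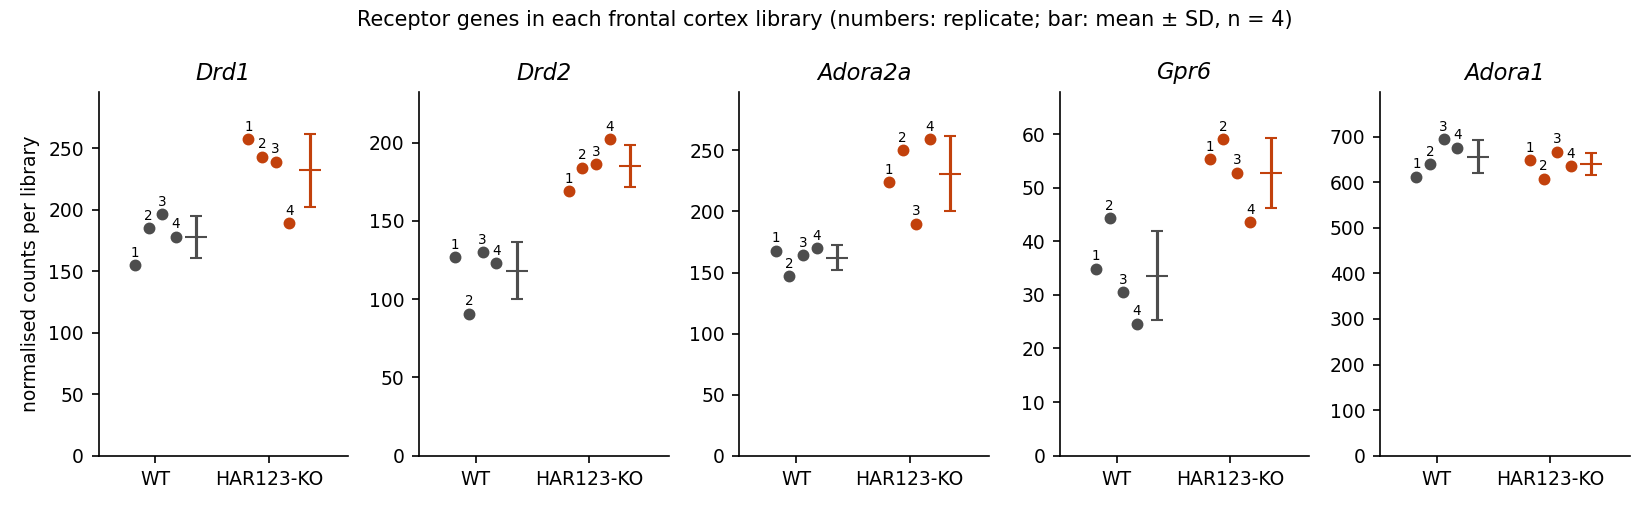
Normalised counts of Drd1, Drd2, Adora2a, Gpr6 and Adora1 in each library, with WT in grey, HAR123-KO in orange, replicate numbers above the points, and the mean ± SD (n = 4) beside them; each vertical axis starts at 0. The HAR123-KO points lie above all WT points for Drd2 (169 to 202 against 90.6 to 130) and Adora2a (190 to 259 against 147 to 170), overlap them for Drd1 and Gpr6, and cover the same range for Adora1.

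The adenosine receptors went separate ways. Adora2a (ENSMUSG00000020178, chr10:75316877-75334784, plus strand), the stimulatory adenosine receptor, had 168, 147, 164 and 170 normalised counts in WT and 224, 250, 190 and 259 in HAR123-KO. HAR123-KO replicate 3 was the lowest of its group, at 190, and was still above every WT library. The means were 162 ± 10.3 and 231 ± 31.0 (SD, n = 4), which differ on the log2 scale by 0.51 ± 0.10 (SE, 95% interval 0.31 to 0.70). This estimate lay close to the fold limit of 0.5. Adora2a was past the limits in 5 of 8 fits that left out 1 library and fell under the fold limit without WT replicate 2, HAR123-KO replicate 2 or HAR123-KO replicate 4. With limma-voom its log2 fold change was 0.49.

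Adora1 (ENSMUSG00000042429, chr1:134199223-134235431, minus strand), the inhibitory adenosine receptor that most cortical neurons carry, had 612, 640, 694 and 676 normalised counts in WT and 649, 608, 667 and 636 in HAR123-KO. The groups covered the same range. Its log2 fold change was -0.04 ± 0.05 (SE), and the 95% interval from -0.14 to 0.07 leaves room for a fold between 0.906 and 1.05. With library totals in place of size factors the estimate took the other sign, at 0.0013. The ratio of Adora2a to Adora1 counts within a library was 0.248 ± 0.0197 for WT and 0.362 ± 0.06 for KO libraries (SD, n = 4), and did not overlap (0.23 to 0.274 against 0.285 to 0.412).

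Gpr6 (ENSMUSG00000046922, chr10:41069977-41072285, minus strand), a receptor with high constitutive activity towards cAMP, had 34.9, 44.3, 30.5 and 24.6 normalised counts in WT and 55.3, 59.0, 52.8 and 43.6 in HAR123-KO. WT replicate 2 and HAR123-KO replicate 4 overlapped by less than 1 count. The means were 33.6 ± 8.29 and 52.7 ± 6.55 (SD, n = 4), the same ratio of 1.57 as for Drd2. The log2 fold change of 0.66 ± 0.21 (SE) had a 95% interval from 0.25 to 1.06, and Gpr6 was not past the limits by DESeq2 but was by edgeR (0.66) and limma-voom (0.67).

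Th (ENSMUSG00000000214, chr7:142892752-142931128, minus strand), tyrosine hydroxylase, was read 5, 4, 9 and 6 times in WT and 8, 6, 9 and 9 times in HAR123-KO. The ranges overlapped, and the log2 fold change of 0.38 ± 0.51 (SE), with a 95% interval from -0.61 to 1.38, allows a change in either direction. Its transcript is made mainly by the cell bodies of midbrain neurons, and the summed counts of 9 midbrain dopamine neuron markers, 107 to 140 in WT and 123 to 144 in HAR123-KO, overlapped as well. This sum was almost wholly 1 gene, Aldh1a1, with 91.7% of it in WT and 89.6% in HAR123-KO, and 4 of the 9 markers had no read in any library, so it says little about midbrain transcripts.

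The starts of Gpr6 and Th are shown because they alone among the 8 genes with a RefSeq window hold a full cAMP response element (TGACGTCA), in GRCm38.p6 at chr10:41072241-41072540 and chr7:142899946-142900245, both on the minus strand and written here in the direction of transcription. Capitals mark that element and GC boxes.
Gpr6: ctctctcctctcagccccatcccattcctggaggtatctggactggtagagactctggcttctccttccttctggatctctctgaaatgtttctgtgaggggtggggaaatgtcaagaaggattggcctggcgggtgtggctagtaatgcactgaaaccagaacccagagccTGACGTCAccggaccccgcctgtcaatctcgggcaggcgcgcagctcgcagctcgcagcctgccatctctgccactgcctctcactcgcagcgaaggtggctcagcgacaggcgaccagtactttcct
Th: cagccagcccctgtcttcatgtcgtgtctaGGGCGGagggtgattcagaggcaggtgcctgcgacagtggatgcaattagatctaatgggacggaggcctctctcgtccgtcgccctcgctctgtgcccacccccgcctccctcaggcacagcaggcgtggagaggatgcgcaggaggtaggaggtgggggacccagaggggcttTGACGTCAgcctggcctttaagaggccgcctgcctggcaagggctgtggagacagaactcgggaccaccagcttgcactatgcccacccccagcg
The full element occurs in 1.79% of all promoter windows, and its half-site TGACG, which the full element contains on both strands, in 20.8%. Both windows have the full element once, and Th also has 1 GC box. Neither holds a TATA box or an NGFI-B response element (AAAGGTCA, in 1.51% of windows), and none of the windows of the other members held these. Adora2a was not matched in the RefSeq promoter table.

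For the pairs below, ratios of members within a library overlapped between the genotypes, which at n = 4 does not show that they were unchanged. The ratio of Drd2 to Drd1 counts was 0.666 ± 0.136 for WT and 0.814 ± 0.177 for KO libraries (SD, n = 4), with ranges that overlapped. HAR123-KO replicate 4, which had the lowest Drd1 and the highest Drd2 of the KO libraries, had the highest ratio, 1.07, and WT replicate 2 had the lowest, 0.489. The ratio of Drd2 to Adora2a was 0.722 ± 0.0768 and 0.811 ± 0.112, and that of Gpr6 to Drd2 was 0.3 ± 0.13 and 0.287 ± 0.0512, both overlapping between genotypes. These ratios restate the values above for genes chosen on this contrast and are a description only.

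The rest of the dopamine and adenosine pathway was described from 6 lists of genes, and no gene of any of them was past the limits by DESeq2, edgeR or limma-voom. The lists here and below were also chosen with earlier results of these data known. Their p-values and counts are therefore a description and no independent support. The median log2 fold change over all 12758 genes was -0.00174, and 49.4% of genes were higher in HAR123-KO. For dopamine synthesis, storage, uptake and breakdown besides Th, 18 genes were listed, 8 were tested, and 0 had an adjusted p under 0.05 by DESeq2, edgeR or limma-voom, nor any an unadjusted p under 0.05 by DESeq2. Qdpr, which recycles the cofactor of tyrosine hydroxylase, had the highest log2 fold change (0.13 ± 0.07 SE), and Maob, which breaks down monoamines, the lowest (-0.23 ± 0.18 SE). The plasma membrane dopamine transporter Slc6a3 and the vesicular transporter Slc18a2 had means under 1 normalised count in both genotypes.

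In the list of D1-like coupling and cAMP signalling, all 31 genes were tested and 7 rose by the DESeq2 adjusted p with folds under the limit, and none fell. Over all genes tested, 0.972% rose and 0.713% fell by that adjusted p. The median over the list was 0.03, and 21 of 31 genes were higher. Pde1b, a calcium-dependent phosphodiesterase, rose most, from 851 ± 15.8 to 1120 ± 28.8 normalised counts (SD, n = 4; log2 fold change 0.40 ± 0.04 SE, DESeq2 adjusted p = 2.65e-17). Gng7 (0.38), Ppp1r1b (0.36), Adcy5 (0.29), Pde10a (0.29) and Gnal (0.18), given as log2 fold changes, also rose, and with the exception of the phosphodiesterase Pde10a these encode parts of the route from the D1 receptor to protein kinase A targets in striatal neurons. All 6 are also on the list of shared striatal markers, where their median was 0.32. Over the other 25 genes the median was 0.01, and 1 of these rose, Ppp3ca, the catalytic subunit of calcineurin (0.18 ± 0.02 SE, DESeq2 adjusted p = 5.21e-10), named after its value was seen. The lowest was Prkar2a, a regulatory subunit of protein kinase A, at -0.15 ± 0.10 (SE).

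In the list of D2-like coupling, receptor regulation and trafficking, 31 of 32 genes were tested, and the median log2 fold change was 0.04. Rgs9, which speeds the shutdown of inhibitory G proteins downstream of Drd2, rose from 402 ± 8.79 to 552 ± 14.0 normalised counts (SD, n = 4; 0.46 ± 0.06 SE, DESeq2 adjusted p = 1.2e-11). It is the 1 tested gene of this list that is also a shared striatal marker. Gnao1, the most abundant inhibitory G protein subunit of brain, fell (log2 fold change -0.11 ± 0.03 SE; adjusted p = 0.0157 by DESeq2; named after its value was seen), and Kcnj9, a G protein-gated potassium channel, had the lowest value among the tested genes of the list (-0.20 ± 0.06 SE), with an adjusted p under 0.05 by edgeR and limma-voom but not by DESeq2. Over the 30 genes other than Rgs9 the median was 0.04.

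Of 25 genes of adenosine formation, uptake and breakdown and the other adenosine receptors, 17 were tested and 0 had an adjusted p under 0.05 by DESeq2, edgeR or limma-voom, 1 had an unadjusted p under 0.05 by DESeq2, and the median log2 fold change was 0.08. The values ran from -0.48 ± 0.28 (SE) for Dpp4, a peptidase that binds adenosine deaminase, to 0.32 ± 0.15 for Slc29a3, a nucleoside transporter. Among 18 receptors that have been described beside Drd2, Adora2a or Gpr6, 16 were tested, with a median of 0. Among those that rose by the adjusted p was Grm5, a glutamate receptor (0.19 ± 0.04 SE, DESeq2 adjusted p = 0.000425), named after its value was seen. By the rule for named genes the extremes of that list were Gpr12, a close relative of Gpr6, at 0.36 ± 0.19 (SE) and Ntsr2 at -0.14 ± 0.09 (SE). Of 30 other aminergic receptors, 18 were tested, with a median of 0.02. By DESeq2, 0 had an adjusted p under 0.05 and 1 an unadjusted p under 0.05, and by edgeR and by limma-voom 1 had an adjusted p under 0.05, Htr2c. The extremes were Htr2c, a serotonin receptor (0.42 ± 0.14 SE, DESeq2 adjusted p = 0.108), and Chrm2, a muscarinic receptor (-0.26 ± 0.15 SE).

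**Figure D3:**
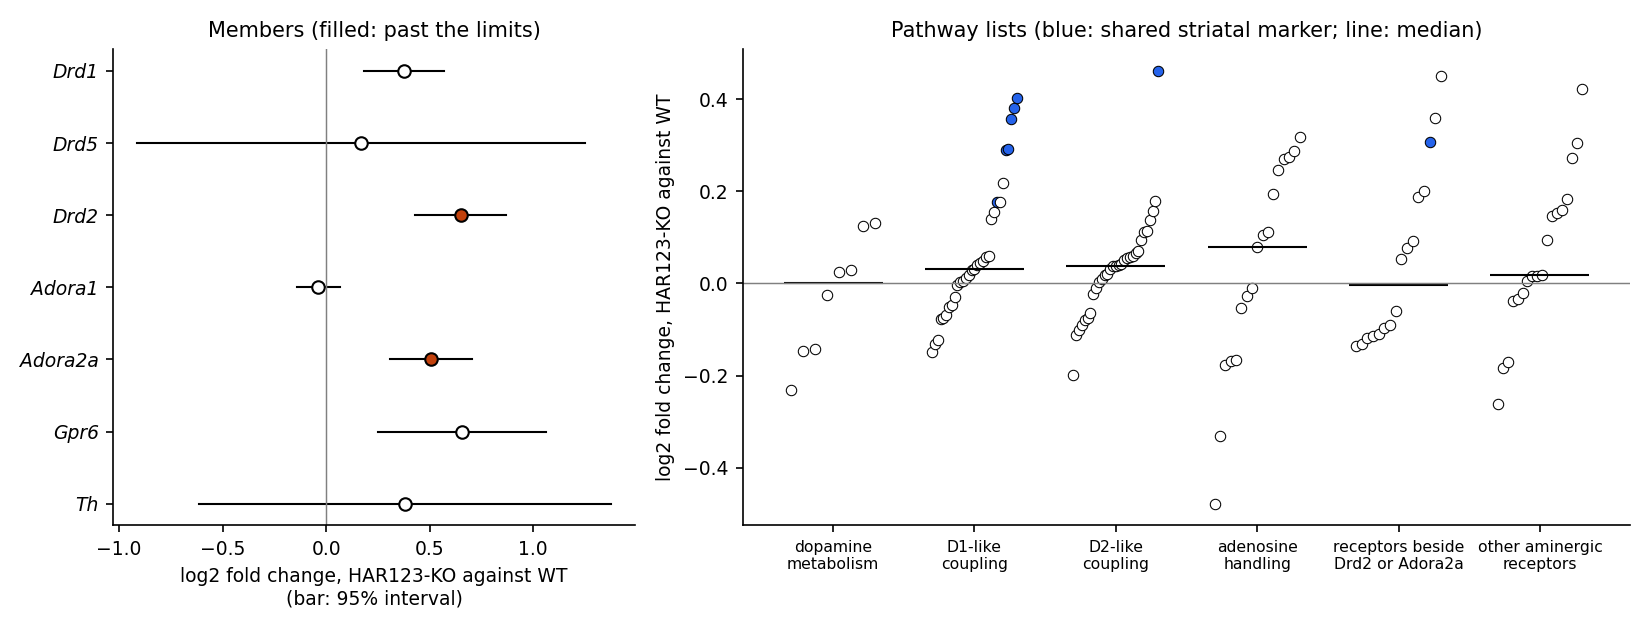
Left, log2 fold changes of 7 members with 95% intervals, filled where past the limits (Drd2 at 0.65 and Adora2a at 0.51). Right, log2 fold changes of the tested genes of the 6 pathway lists, blue for genes that are also shared striatal markers, with a line at each median; the medians lie between 0 and 0.08, and the blue point of the D2-like list is its highest, and those of the D1-like list run from 0.18 (Gnal) to 0.40 (Pde1b).

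Markers of striatal projection neurons moved with the receptors. Of 16 markers shared by both types of these neurons, 15 were higher in HAR123-KO and 12 had an adjusted p under 0.05 by DESeq2 with none past the fold limit, at a median log2 fold change of 0.30. Over all genes tested, 49.4% were higher, and 0.972% were higher with an adjusted p under 0.05. No marker was at 0, and their summed counts were 9862 to 10195 in WT and 12160 to 12384 in HAR123-KO. In bulk tissue, more cells of a type and more RNA per cell cannot be told apart. Per 1000 counts of that sum, Drd2 had 12.7, 8.89, 13.1 and 12.3 in WT and 13.9, 14.8, 15.1 and 16.4 in HAR123-KO, which did not overlap. For Adora2a the same measure was 16.2 ± 1.2 in WT and 18.8 ± 2.46 in HAR123-KO, for Gpr6 3.35 ± 0.785 and 4.29 ± 0.531, and for Drd1 17.8 ± 1.78 and 18.9 ± 2.47 (SD, n = 4), with overlap between genotypes in all of these. Gpr6 overlapped through WT replicate 2 (4.34), which was above HAR123-KO replicates 3 (4.3) and 4 (3.54). Whether Drd2 differed from the other receptors on this measure was not tested.

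**Figure D4:**
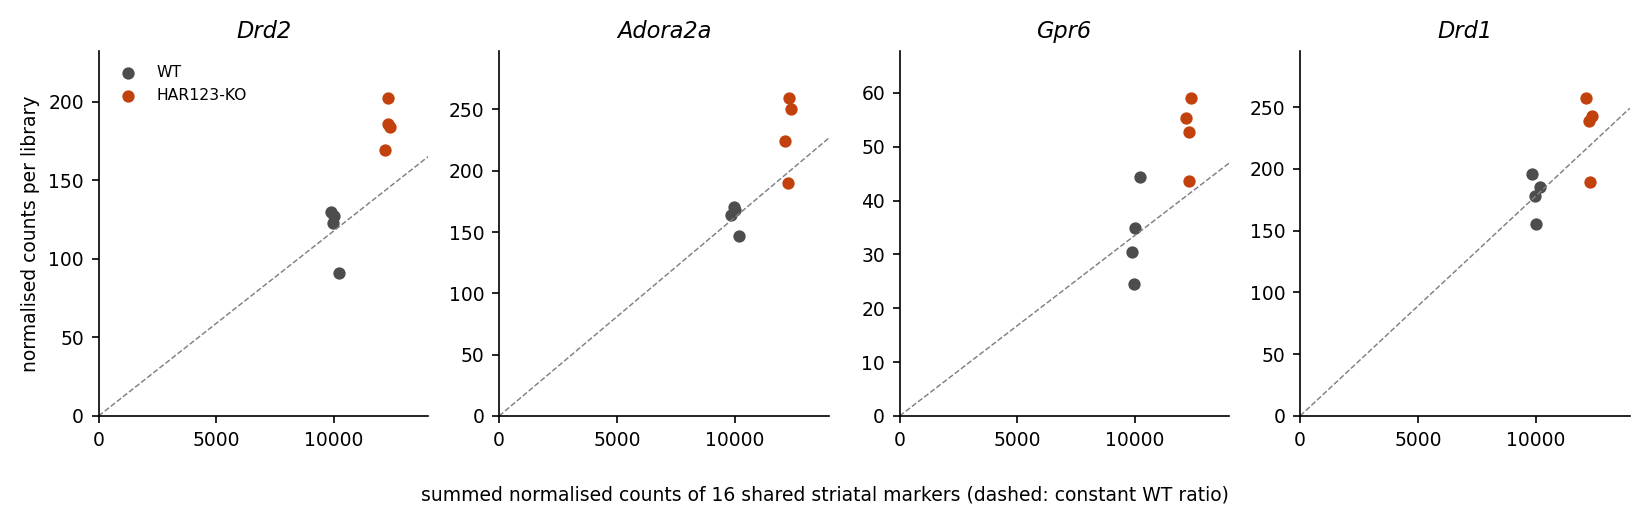
Normalised counts of Drd2, Adora2a, Gpr6 and Drd1 (vertical axes, from 0) against the summed normalised counts of 16 shared striatal markers (horizontal axes), 1 point per library, with a dashed line at the mean WT ratio. The WT libraries lie between 9862 and 10195 on the horizontal axis and the HAR123-KO libraries between 12160 and 12384, and all 4 HAR123-KO libraries lie above the line for Drd2 and for Gpr6; for Drd2, 3 of 4 WT libraries also lie above it, because WT replicate 2 is low.

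The lists that separate the types of striatal neuron moved less than the shared list. Of 8 indirect-type markers found, members left out, 7 were tested and 1 was past the limits, the enkephalin precursor Penk, which went from 476 ± 21.9 to 823 ± 26.2 normalised counts (SD, n = 4; log2 fold change 0.80 ± 0.05 SE, DESeq2 adjusted p = 7.2e-46). The median of that list was -0.02, its summed counts were 1781 to 1915 in WT and 2102 to 2202 in HAR123-KO, and it had no marker at 0. Without Penk, the sum of the other 7 was 1335 to 1432 in WT and 1266 to 1350 in HAR123-KO, which overlapped. Per 1000 shared striatal counts, Penk had 47.5 ± 1.86 in WT and 67.1 ± 2.53 in HAR123-KO. Of 9 direct-type markers, 8 were tested. By DESeq2, 0 had an adjusted p under 0.05 and 2 an unadjusted p under 0.05, and edgeR called 1 and limma-voom 0 at that adjusted p, with summed counts of 3393 to 3659 in WT and 3412 to 3495 in HAR123-KO.

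Other marker sums differed between the genotypes as well, so that Drd2 and Adora2a were not alone in separating them. In all, the summed counts of 10 of 15 marker lists did not overlap, 5 higher and 5 lower in HAR123-KO. How often sums over other sets of genes separate the genotypes was not computed. With the most abundant marker of each list left out, a comparison chosen after seeing the data, 9 did not overlap, 4 higher and 5 lower, since the indirect-type list was apart through Penk alone. Choroid plexus markers went from 93 to 109 in WT to 760 to 785 in HAR123-KO, oligodendrocyte markers from 15460 to 15951 to 17540 to 17872, and deep layer markers from 1413 to 1536 to 1575 to 1665. Of the 10 deep layer markers 7 were higher, and 0 had an adjusted p under 0.05 by DESeq2. At that limit edgeR called 2, Foxp2 and Etv1, and limma-voom 1, Etv1. Among the lower ones were Fezf2 (log2 fold change -0.06) and Rbp4 (-0.32). Claustrum and layer 6b markers were lower, 1225 to 1371 against 1025 to 1089, as were those of upper layers, 4058 to 4234 against 3728 to 3895, of astrocytes, 23575 to 24259 against 21899 to 22499, of endothelium, 552 to 593 against 438 to 473, and, by a small margin, pan-neuronal markers, 29843 to 30459 against 29323 to 29687. Those of interneurons, microglia and olfactory bulb overlapped. None of these lists other than that of the olfactory bulb, with 2 of 7, and of midbrain dopamine neurons had a marker at 0 in all libraries. The part that such differences in the dissected tissue have in the values of Drd1, Drd2, Adora2a and Gpr6 was not tested.

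No gene next to Drd2 or Adora2a was past the limits. The protein-coding genes on either side of Drd2, Gm4894 at 60032 bases and Ankk1 at 7016 bases, had 0 reads in all 8 libraries. Beside Adora2a, Specc1l, a cytoskeletal linker 4133 bases away, differed by 0.19 ± 0.08 on the log2 scale (SE; adjusted p = 0.421 by DESeq2), and Gucd1, 16326 bases away on the other side, by 0.22 ± 0.20 (SE; adjusted p = 0.886 by DESeq2). Of the genes that overlap a member, Mybph, which overlaps one end of Adora1, had 1 read in WT and 2 in HAR123-KO, and the small RNA gene Gm25996 within Drd3 had none.

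Among 9279 genes with a mean of at least 50 normalised counts, the ones that varied most like Drd2 across the 8 libraries, after the genotype means were removed, were Cadm3 (r = 0.99), Cdc42se1 (0.97) and Heatr6 (0.97). For Adora2a they were Lrrc73 (0.98), Gm12918 (0.96) and Shisa9 (0.95). These are the highest of 9279 correlations over 8 libraries, in which both genes of a pair share each library's depth and size factor, and are given as a description only. None of the 6 had an adjusted p under 0.05 between genotypes by DESeq2.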

How the data were processed

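Total RNA of mouse frontal cortex was depleted of ribosomal RNA, made into libraries with a directional kit and sequenced in pairs. Per the labels and the study's methods, the authors aligned reads to GRCm38 with STAR 2.5.2b, counted them per gene with featureCounts (Subread) and tested them with DESeq2; the version of the last 2 and the strand and multi-mapping settings at counting are not given in the sources used here. The deposited values are raw counts per gene (55536 Ensembl 96 genes), and all columns were mapped by name to 4 WT and 4 HAR123-KO libraries.

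The counts were fitted on the whole table with DESeq2 1.42.0 in R 4.3.3 (genotype only, median-of-ratios size factors, independent filter at 0.1, which removed genes under a mean of 17.6 normalised counts). Intervals are 95% Wald intervals. A gene was called past the limits at 0.05 for the adjusted p together with 0.5 for the size of the log2 fold change. The scripts were tested on simulated data with 200 changed genes.

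The members and gene lists were chosen with earlier results of these data known. Named were the 9 members, each pathway-list gene past the limits, the highest and lowest fold change of each list (mean of at least 20 normalised counts), the nearest protein-coding genes of called members, genes overlapping a member, the 3 genes most like Drd2 and Adora2a (Pearson's r of log2(normalised count + 1) within genotype), and marker genes beside the result they move with. Gpr52 and Ctgf were not found under these symbols. Results for 1 listed gene are not reported here. Alternatives were edgeR 4.0.16 quasi-likelihood, limma-voom (limma 3.58.1), TMM factors, library totals, protein-coding size factors, no independent filter, at least 10 counts in 4 libraries, no minimum fold change, stricter limits (0.01 and 1), a replicate block, and each library left out. Sequences are from RefSeq for GRCm38.p6, which matched 8 of the 9 members.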

Additional observations from a re-analysis of the deposited data

Results flagged for a closer look

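Of 46 groups of 4 libraries examined for a value far from the other 3, 3 had one, where chance alone gives about 2.3. That rate does not hold for Drd3 and Drd4, where the other libraries were at 0 and any read fills the whole range. Drd2 had 90.6 normalised counts in WT replicate 2 against 123 to 130 in the other WT libraries, and the gap was 0.831 of the whole range, just above Dixon's critical value for 4 samples. Drd3 had 1.69 normalised counts in WT replicate 3 against 0 in the others, which is 2 reads. Drd4 had 0.951 normalised counts in HAR123-KO replicate 2 against 0 in the others, which is 1 read.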

How the results depend on the processing

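The number of genes past the limits was 38 (29 higher). It was 73 with edgeR, 215 with no minimum fold change, 3 under the stricter limits, 9 with a replicate block, and 11 to 44 when 1 library was left out, the lowest being 11 without HAR123-KO replicate 4, then 18 without WT replicate 3. Of the 9 members, 2 were past the limits, 0 under the stricter limits and 0 with the block, and 1 to 2 when 1 library was left out, with 1 (Drd2) without WT replicate 2, HAR123-KO replicate 2 or HAR123-KO replicate 4. Drd2 was past the limits in 16 of 18 alternatives, all but the block and the stricter limits. Adora2a was past them in 12 of 18. Drd1 passed only with no minimum fold change, and Gpr6 with edgeR and limma-voom. The direction turned for Drd5 on leaving out WT replicate 1 (-0.0069) or HAR123-KO replicate 4 (-0.2182, in a range up to 0.525), and for Adora1 with library totals (0.0013). No other alternative turned a direction among the genes recomputed, which were the members, the extremes of the pathway lists and the neighbours of Adora2a; the fold changes of the other genes named were not recomputed.

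WT and HAR123-KO libraries share replicate numbers. Deviations of same-numbered libraries were not correlated (-0.0274 to 0.0289), and those of differently numbered libraries ran from -0.0295 to 0.0307. The spread within a genotype was close to counting error, so this check cannot tell whether the numbers pair the libraries. The fits for Drd3, Drd4, Drd5 and Th gave no value under 3 of the alternatives, whose filters remove them. The cause of the changes in count was not tested. With 2786320 to 3732172 protein-coding reads per library, depth limits Drd3, Drd4, Drd5 and Th most.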
